A study of Mus musculus with 6 samples.

Results

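The Ikaros family comprises 5 genes of zinc finger transcription factors, Ikzf1 (Ikaros), Ikzf2 (Helios), Ikzf3 (Aiolos), Ikzf4 (Eos) and Ikzf5 (Pegasus). Their H3K4me3 regions were taken as all regions that overlapped the gene body or the 5 kb on either side of it. This gave 40 of 46565 regions in the list from Atg5 knockout cells and 18 of 48546 regions in the list from wild-type cells. The 5 genes belong to 21887 protein-coding genes on the chromosomes analysed. They were chosen by family membership, and with their covered lengths in both lists already known, so those lengths are given as a description.

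The cells were CD8+ tumour-infiltrating lymphocytes from E0771 tumours, a mouse mammary tumour line, on a C57BL/6 background. The knockout group carried a Cre-mediated deletion of Atg5, a gene needed for autophagosome formation, and the other group was wild type. The labels name neither the Cre driver nor the number of animals, and give no age. Each genotype had 1 library of native, micrococcal nuclease-digested chromatin precipitated with an antibody against H3K4me3, a mark of active gene starts. No difference below therefore has a replicate check or a p-value.

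Ikaros family proteins bind DNA through zinc fingers near the N terminus and pair with one another through zinc fingers at the C terminus. They recruit chromatin remodelling and deacetylase complexes, of which NuRD is the best known, and mostly act in lymphocytes. Ikaros is needed for lymphoid development, Aiolos for B and T lymphocyte maturation, Helios marks many regulatory and some activated T cells, and Eos works with Foxp3 in regulatory T cells. Pegasus is the most distant relative and is widely expressed. Broad H3K4me3 that runs from the start into the gene body is a known feature of genes that define a cell's identity.

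The T cell label was checked against 12 marker genes. A gene was called marked where a region came within 1 kb of its 5′ end. All 12 markers were so in the knockout list, against 3 of 12 in the wild-type list. Among all protein-coding genes, 61.1% were marked in the knockout list and 59.6% in the wild-type list. Cd8a and Cd3e, which encode chains of the CD8 co-receptor and of the CD3 complex, had no covered base within 5 kb of the gene in the wild-type list, against 8723 and 5228 bp in the knockout list. The 3 markers marked in the wild-type list were Cd8b1, the other CD8 chain gene, with 19808 bp in the knockout list against 705 bp in the wild-type list, Cd3d, with 11298 against 2572 bp, and Cd247, with 30803 against 8120 bp. Marks of T cell genes were thus present but short or missing in the wild-type list. In bulk chromatin, fewer T cells and less of the mark per T cell cannot be told apart. Summed over the 12 markers, the covered length was 192782 bp in the knockout list and 30239 bp in the wild-type list, and its part in the Ikaros family values was not tested. The lists covered 73.1 Mb in the knockout and 71.3 Mb in the wild type. Library depth is unknown from these lists.

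Sequences are shown for the annotated starts of Ikzf1 and Ikzf5, the family members present in the RefSeq promoter table (GRCm38.p6), because the regions of the 2 genotypes differed at the first Ikzf1 start and nearly coincided at Ikzf5. Each runs 5′ to 3′ from 250 bases before to 50 bases after the start, with CpG dinucleotides in capitals.
Ikzf1 upstream start, chr11:11685675-11685974, plus strand: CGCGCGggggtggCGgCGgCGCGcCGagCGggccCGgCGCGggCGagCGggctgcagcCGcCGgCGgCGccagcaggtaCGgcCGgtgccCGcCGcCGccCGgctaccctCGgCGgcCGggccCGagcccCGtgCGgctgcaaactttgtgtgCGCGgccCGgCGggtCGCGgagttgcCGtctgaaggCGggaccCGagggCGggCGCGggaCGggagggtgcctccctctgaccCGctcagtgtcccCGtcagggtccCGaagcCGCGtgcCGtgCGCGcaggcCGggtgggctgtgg
Ikzf1 downstream start, chr11:11689927-11690226, plus strand: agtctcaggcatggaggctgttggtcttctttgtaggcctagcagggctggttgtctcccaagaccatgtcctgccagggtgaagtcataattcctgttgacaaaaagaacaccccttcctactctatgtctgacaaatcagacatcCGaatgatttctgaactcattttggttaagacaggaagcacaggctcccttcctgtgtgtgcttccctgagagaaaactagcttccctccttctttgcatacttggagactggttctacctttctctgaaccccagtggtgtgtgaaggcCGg
Ikzf5 start, chr7:131410429-131410728, minus strand: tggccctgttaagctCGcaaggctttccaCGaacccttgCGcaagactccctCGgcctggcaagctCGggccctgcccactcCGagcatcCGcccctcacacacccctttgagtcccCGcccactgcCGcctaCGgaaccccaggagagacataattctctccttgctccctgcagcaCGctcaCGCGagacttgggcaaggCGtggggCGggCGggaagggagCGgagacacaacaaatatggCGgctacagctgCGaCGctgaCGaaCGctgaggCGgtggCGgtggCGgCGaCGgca

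The upstream Ikzf1 start held 52 CpG dinucleotides in 300 bases, more than 99.3% of the 21263 promoters of protein-coding genes in that table, whose median was 13. Its GC content was 81.3%. All 300 bases lay under a region in the knockout list and none did in the wild-type list, where the nearest region began 222 bp away. The downstream Ikzf1 start held 2 CpG dinucleotides and 49.0% GC, and all of its 300 bases were covered in both lists. The Ikzf5 promoter held 27 CpG dinucleotides and 65.7% GC and was fully covered in both lists. The sequence TGGGAA, a core recognised by Ikaros proteins that contains the GGAA core of ETS factors, was searched on both strands. It was in none of these 3 windows and in 24.5% of all promoters of that length.

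Ikzf1 had the longest coverage of the family in both lists (chr11:11684962-11772930, gene body of 87969 bp). Its 16 knockout regions covered 40100 bp of the gene body plus 5 kb, which was 40.9% of that window. Its 4 wild-type regions covered 7480 bp, or 7.64%. The knockout coverage was 5.36 times the wild-type coverage, and 32620 bp longer. By that difference Ikzf1 ranked 18 among the 21887 genes, and by the difference in percent of the window, which removes the advantage of long genes, it ranked 70. Of the wild-type covered bases 95.5% were also covered in the knockout list, whereas 17.8% of the knockout covered bases were covered in the wild-type list.

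The start of Ikzf1 lay under 1 knockout region of 13288 bp, wider than 99.9% of regions in its list, with an authors' fold over local background of 29.0. The same stretch held 3 wild-type regions of 4541, 1303 and 490 bp, with folds of 7.80, 6.50 and 3.38 in their own list. The knockout region began 1602 bp before the first of these and ended 3063 bp after the last. The summits were close, 2608 bp inside the gene from the upstream start in the knockout list and 2449 bp in the wild-type list. Joined over gaps of up to 1 kb, the knockout domain spanned 16492 bp, ranked 59 of 42108 domains by width, and was covered over 38.4% in the wild-type list. The wild-type domain spanned 6238 bp and ranked 637 of 44306.

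The lncRNA gene Gm11999 (chr11:11642203-11685635) overlaps the end of Ikzf1 of lower coordinate, and its strand was not determined here. Together with 1 kb on either side, it had 5666 bp covered in the knockout list and 440 bp in the wild-type list. The 440 bp lie beyond the end of Gm11999 and belong to the first wild-type region of Ikzf1. The knockout value includes part of the region at the Ikzf1 start, and its other bases are counted again in the upstream surroundings of Ikzf1 below. Reads where Gm11999 and Ikzf1 overlap fall in the same knockout region as the start of Ikzf1 and cannot be assigned to either gene.

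Beyond the start, 14 of the 16 knockout regions of Ikzf1 met no wild-type region, whereas 76.0% of all knockout regions met one. These 14 ran along the gene body with folds between 3.87 and 13.0. The widest of them spanned 5398 bp, with its summit 39890 bp downstream of the start. The next widest spanned 4596 bp at 30421 bp downstream. With the gene body cut into 3 equal segments of 29323 bp, the first held 19199 bp in the knockout list against 6334 bp in the wild-type list. The middle segment held 16732 bp in the knockout list and 0 bp in the wild-type list. The last segment held 3801 bp in the knockout list and 1146 bp in the wild-type list.

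The end of Ikzf1 differed from the rest of the gene. A region near its end of higher coordinate was present in both lists, with summits 25 bp apart. It was narrower in the knockout list, 857 bp against 1146 bp in the wild-type list. Its fold was 8.29 in the knockout list, the fourth highest of the Ikzf1 regions there, and 12.7 in the wild-type list, where it was the highest.

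**Figure D1:**
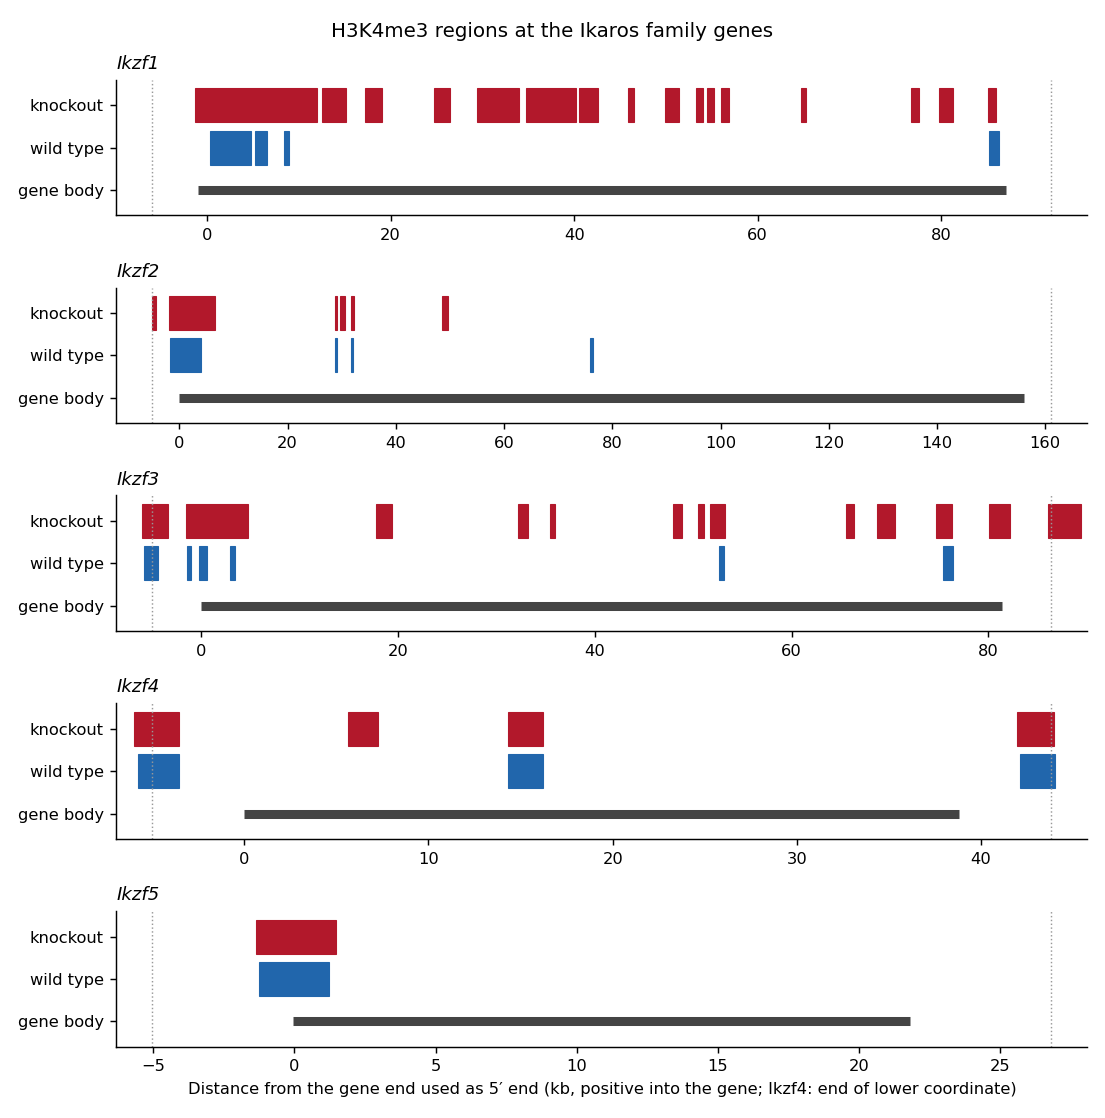
Position of H3K4me3 regions along each Ikaros family gene, with knockout regions in red above wild-type regions in blue and the gene body in grey; the x axis is the distance in kb from the gene end used as 5′ end, and dotted lines mark 5 kb beyond the gene body. Ikzf1 and Ikzf3 carry 16 and 13 knockout regions against 4 and 6 wild-type regions, while Ikzf5 has 1 in each list.

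Ikzf3 had the next largest difference (chr11:98464610-98546031, gene body of 81422 bp). The gene table lacks its strand, so the end of higher coordinate, which had more coverage, was used as its 5′ end. Its 13 knockout regions covered 20837 bp or 22.8% of the window, and its 6 wild-type regions 3723 bp or 4.07%. The knockout coverage was 5.60 times the wild-type coverage and 17114 bp longer, which ranked 63 by length and 278 by percent of the window. Almost all wild-type bases, 98.8%, were also covered in the knockout list.

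At that end of Ikzf3 the knockout list had 1 region of 6286 bp with a fold of 20.2. The wild-type list had 3 short regions inside it, of 523, 779 and 441 bp, with folds of 3.42, 3.38 and 3.12. These wild-type regions lay low in their own list, where the strongest had a fold above that of 6.74% of regions. Within 2.5 kb of the end, 4083 bp were covered in the knockout list and 1220 bp in the wild-type list, a difference of 2863 bp. Differences of at least 2000 bp at this scale were seen at 1.08% of all protein-coding genes, and Ikzf3 was the only family member among them.

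Further into Ikzf3, 8 of its 13 knockout regions met no wild-type region, whereas 76.0% of all knockout regions met one. Those 8 had folds from 3.59 to 9.40. The coverage was spread along the gene, with 6316, 4569 and 5619 bp in the first, middle and last of 3 equal segments in the knockout list. The wild-type list had 1071, 441 and 943 bp in those segments. A region in the middle of the gene body had summits 36 bp apart in the lists. It spanned 1494 bp with a fold of 13.3 in the knockout list, and 441 bp with a fold of 2.99 in the wild-type list. The flanking region at Zpbp2, the neighbouring gene, lay partly in the window. It spanned 2622 bp with a fold of 26.3 in the knockout list and 1405 bp with a fold of 6.76 in the wild-type list. A region at Mien1 on the other side spanned 3288 bp in the knockout list, of which 335 bp fell in the window, and 2114 bp in the wild-type list, all outside the window.

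Ikzf2 (chr1:69531207-69687351, gene body of 156145 bp) was covered at its start to nearly the same extent in both lists. Again the end of higher coordinate was used, since the table lacks the strand. Within 2.5 kb of it, 4362 bp were covered in the knockout list and 4317 bp in the wild-type list. The region there spanned 8430 bp in the knockout list with a fold of 32.5, and 5773 bp in the wild-type list with a fold of 29.2. These widths exceeded those of 99.5% of knockout regions and 99.1% of wild-type regions. The outer edges lay 45 bp apart, whereas the knockout region reached 2612 bp further into the gene.

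Over the whole window, Ikzf2 had 12091 bp covered in the knockout list and 7090 bp in the wild-type list, a difference of 5001 bp at rank 579. This was 7.28% and 4.27% of the window. Of 6 knockout regions, 3 met no wild-type region, whereas 76.0% of all knockout regions met one. The strongest of these 3, 1044 bp wide about 30056 bp into the gene, had a fold of 11.3. Ikzf2 also held the only family region found in the wild-type list alone, 552 bp wide with a fold of 4.16, 76279 bp into the gene. The other small shared regions had folds of 3.95 and 3.87 in the knockout list and 3.64 and 3.90 in the wild-type list.

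Ikzf4 (chr10:128630839-128669671, gene body of 38833 bp) had no region within 2.5 kb of either end in either list. Covered length over the window was 6870 bp in the knockout list and 5104 bp in the wild-type list, 14.1% and 10.5%. Much of this belonged to the neighbours Rps26, a ribosomal protein gene, and Suox, sulphite oxidase. Their regions spanned 2482 and 2015 bp in the knockout list, against 2250 and 1916 bp in the wild-type list. Inside Ikzf4, 1 region at the start of the lncRNA gene Gm26876 was nearly the same in both lists, 1891 bp with a fold of 12.4 in the knockout list and 1901 bp with a fold of 10.1 in the wild-type list. A further region of 1642 bp with a fold of 12.7 was in the knockout list alone. The gene table gives no transcript starts for Ikzf4, so it was not determined whether either intragenic region is one of its promoters.

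Ikzf5 (chr7:131388649-131410518, gene body of 21870 bp) had 1 region in each list, at its start. It spanned 2811 bp with a fold of 24.5 in the knockout list and 2490 bp with a fold of 25.0 in the wild-type list. The summits lay 216 bp apart. The difference of 321 bp ranked 5214 of 21887. Acadsb, an acyl-CoA dehydrogenase gene, begins 83 bp beyond the end of Ikzf5 and shares this region.

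**Figure D2:**
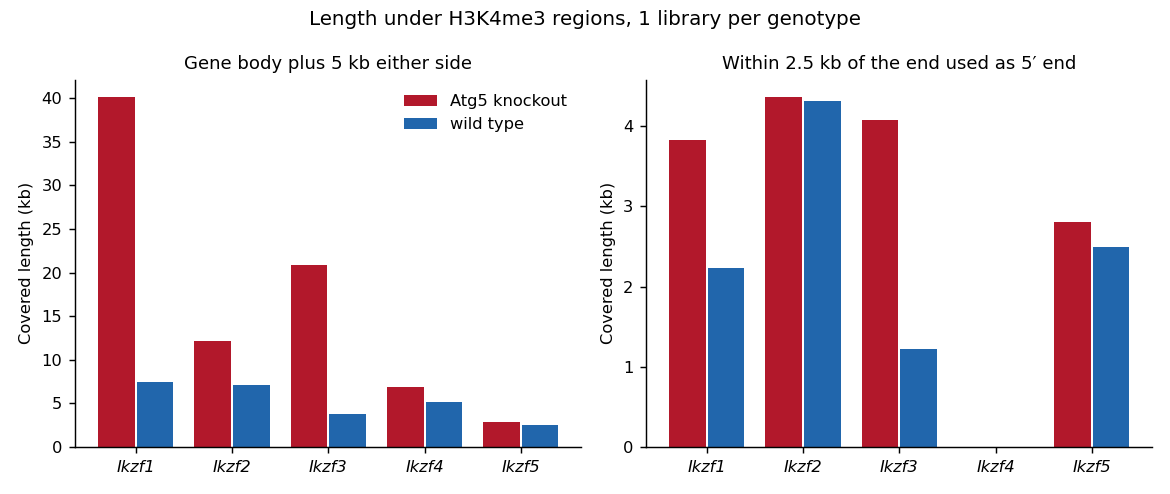
Length under H3K4me3 regions in kb for each family member, in the gene body plus 5 kb (left panel) and within 2.5 kb of the end used as 5′ end (right panel), with knockout bars in red left of wild-type bars in blue, 1 library each. Ikzf1 reaches 40100 bp in the knockout against 7480 bp in the wild type, and Ikzf4 has no bar at the end used.

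Across the family, coverage was longer in the knockout list for all 5 genes and by at least 2000 bp for 3 (Ikzf1, Ikzf3 and Ikzf2). Among all protein-coding genes, 35.1% were longer in the knockout list and 7.34% were so by at least 2000 bp, while 3.76% were shorter by at least 2000 bp. The median difference was 5001 bp over the family and 0 bp over all protein-coding genes, or −50 bp over the 16415 with any coverage. Of those 16415, to which all 5 members belong, 7672 were longer and 8728 shorter in the knockout list. The family was chosen with these values known, so its count is a description and supports nothing further. In order of knockout coverage the genes ran Ikzf1, Ikzf3, Ikzf2, Ikzf4 and Ikzf5, whereas in wild type the order was Ikzf1, Ikzf2, Ikzf4, Ikzf3 and Ikzf5. Without replicates it cannot be said which neighbours in these orders differ.

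Most of the 5′ ends used were marked in both genotypes. In each list 4 of 5 members were marked there. Of all protein-coding genes, 61.1% were marked in the knockout list and 59.6% in the wild-type list. For Ikzf2, Ikzf3 and Ikzf4 the end used was the boundary with more coverage in these same lists, which favours being marked. Of all 21887 genes, 17492 had their start from the promoter table instead, so the count and the shares are not fully alike. No member was marked in the knockout list alone, as 3.24% of all genes were. With regions of a −log10 q of at least 5, or of at least 10, the counts were 4 members in the knockout list and 3 in the wild-type list, since the wild-type regions at the start of Ikzf3 drop out. In covered length within 2.5 kb of the end used, the lists differed most at Ikzf3 among the 4 marked members, by 2863 bp. Ikzf5 differed by 321 bp and Ikzf2 by 45 bp. Ikzf1 had 1602 bp more within 2.5 kb of the upstream start in the knockout list, with 3832 bp against 2230 bp in the wild-type list. Over all settings tried this difference ran from 1271 to 3832 bp, that of Ikzf3 from 1222 to 5534 bp and that of Ikzf2 from 0 to 1702 bp. The highest values of Ikzf2 and Ikzf3 came with 5 kb on either side. If the boundary of the Ikzf1 gene in the gene table is used in place of that start, Ikzf1 is unmarked in the wild-type list and the wild-type count is 3 of 5.

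**Figure D3:**
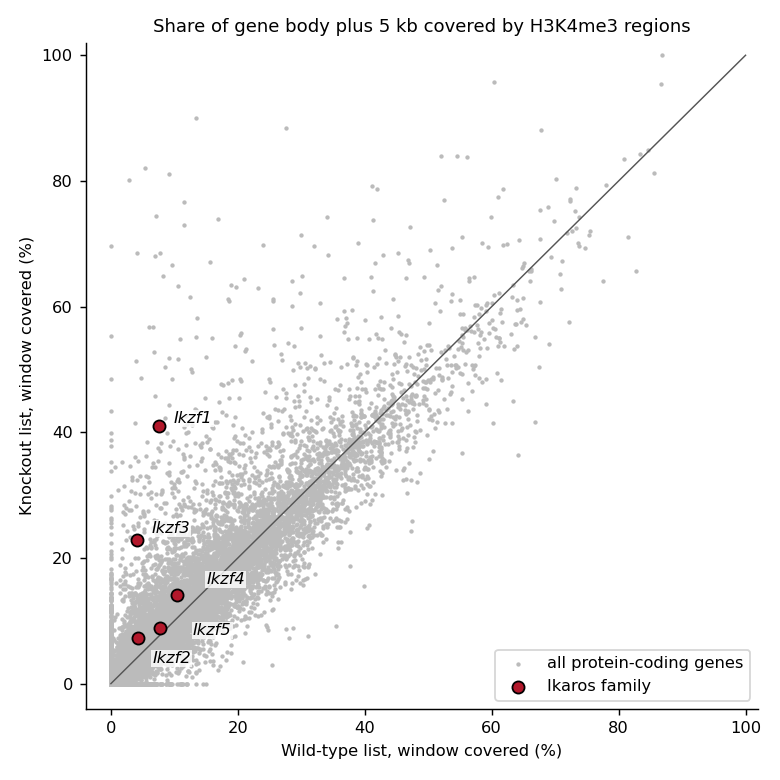
Percent of the gene body plus 5 kb covered by H3K4me3 regions in the knockout list (y axis) against the wild-type list (x axis) for all 21887 protein-coding genes (grey) and the 5 family members (red), with the line of equality. Ikzf1 (40.9% against 7.64%) and Ikzf3 (22.8% against 4.07%) lie far above the line, and Ikzf5 (8.82% against 7.81%) lies next to it.

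The regions of the family were compared as sets. Of the 40 knockout regions 14 met a wild-type region (35.0%, exact Clopper-Pearson 95% interval 20.6 to 51.7%), whereas 76.0% of all knockout regions did. Of the 18 wild-type regions 17 met a knockout region (94.4%, 72.7 to 99.9%), and 73.3% of all wild-type regions did. The intervals cover counting error only, and regions of 1 gene are not independent. They do not test the difference from the whole lists. The family was chosen with its covered lengths in both lists known, so the shares, widths and folds of its regions are a description. Of the 26 knockout regions without a wild-type partner, 22 were at Ikzf1 and Ikzf3. They lay in the gene body in 25 cases and in a flank in 1, with a median width of 1116.5 bp and a median fold of 6.77. Over the whole knockout list such regions had a median width of 734 bp and a median fold of 4.98.

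Where 1 region of a list met exactly 1 of the other, summits were close. The 12 such pairs at the family had a median summit distance of 112.5 bp, from 14 to 864 bp, against 74 bp over the 32131 pairs of the whole lists. The knockout region was the wider in 10 of these 12 pairs and in 33.7% of all pairs. The 12 include flank regions at the neighbours Rps26, Suox, Mien1 and Zpbp2, and the wild-type region at Mien1 lies outside the window. Small Ikzf2 pairs count as wider by 79 and 9 bp. Width is part of the covered length known when the family was chosen, so the count is a description. The broad starts of Ikzf1 and Ikzf3 are not among the 12, because each met 3 wild-type regions.

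**Figure D4:**
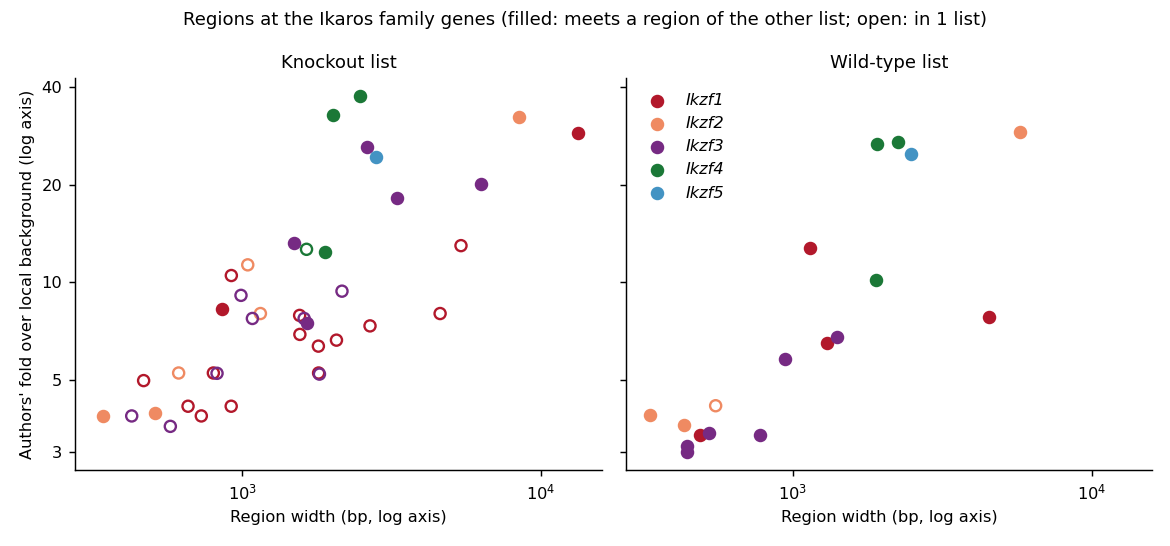
Authors' fold over local background against region width (both log axes) for the 40 knockout regions (left) and the 18 wild-type regions (right) of the family, coloured by gene, filled where the region meets one of the other list. Open knockout symbols lie between folds of 3.59 and 13.0, and the single open wild-type symbol is the Ikzf2 region of 552 bp. Folds are not scaled between the lists.

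Genes with the most similar coverage were found by the distance between percent covered in the knockout list and in the wild-type list, among genes with a window within 1.5 times the member's length. This measure rests on 2 libraries only. For Ikzf1 the closest of 2901 genes was Ptprc, which encodes the leukocyte phosphatase CD45, with 42.35% covered in the knockout list and 8.55% in the wild-type list. Fam107b had 37.0% in the knockout list against 7.80% in the wild-type list. The transcription factor gene Bcl11b, needed for T lineage commitment, had 45.8% against 6.91%. The cytokine receptor kinase gene Jak1 had 35.5% in the knockout list against 7.36%, and Cyth1, a guanine exchange factor gene, had 43.5% against 13.4%.

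For Ikzf3 the closest of 3050 genes were Tbc1d2b, Fli1, Cdc42se2, Tgfbr2 and Gramd3, at distances of 1.77 to 2.43 percentage points. Fli1, an ETS factor gene of blood and endothelium, had 24.6% covered in the knockout list against 3.71% in the wild-type list. The TGF-beta receptor gene Tgfbr2 had 25.0% against 4.27%. For Ikzf2 the closest of 1650 genes were Cyfip2, Man1a2, Atp11b, Smarca2 and Dip2b, at 0.12 to 0.44 percentage points. Cyfip2 had 7.33% in the knockout list against 4.16% in the wild-type list.

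Partners of Ikaros proteins were described in the same way. Among 17 genes of NuRD and other complexes that they bind, all 17 were marked in both lists. Of all protein-coding genes, 61.1% were marked in the knockout list and 59.6% in the wild-type list. In the knockout list 14 of the 17 were longer and 3 shorter, with a median difference of 812 bp. Beside these counts, 35.1% of all genes were longer, or 7672 of the 16415 with any coverage. Differences of at least 2000 bp were seen at 4 of 17, against the 7.34% of all genes. Mta3, a NuRD subunit gene, had 17379 bp in the knockout list against 5268 bp in the wild-type list. Mbd2, which encodes a methyl-CpG binding subunit, had 15550 bp against 8217 bp, and the NuRD subunit genes Gatad2a and Gatad2b had 16040 against 10845 bp and 6221 against 2895 bp. For Chd4, the remodelling ATPase of NuRD, the lengths were 7993 bp in the knockout list and 7653 bp in the wild-type list. For Hdac1, its deacetylase, they were 6294 and 6293 bp. Chd4 and Hdac1 were picked with their values in view. Near the 5′ end the order was the reverse for Mta3, with 3309 bp in the knockout list against 3466 bp in the wild-type list, and for Mbd2, with 2944 bp against 3445 bp.

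Cereblon is the substrate receptor of the ubiquitin ligase that, in human cells, degrades Ikaros and Aiolos in the presence of thalidomide analogues. Its gene Crbn had 7889 bp covered in the knockout list against 3418 bp in the wild-type list, although the starts were alike, with 3015 and 3007 bp within 2.5 kb. Of the 5 genes of this ligase 3 were longer and 2 shorter in the knockout list, and the median difference was 12 bp. Over all protein-coding genes 35.1% were longer, or 7672 of the 16415 with any coverage.

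Of 12 loci described as regulated by Ikaros family proteins, 8 were longer and 2 shorter in the knockout list, and 6 were longer by at least 2000 bp, beside 35.1% of all genes that were longer by any length and 7.34% by at least 2000 bp. Their median difference was 1544.5 bp. The CD8 chain genes Cd8b1 and Cd8a had 19808 and 8723 bp in the knockout list against 705 and 0 bp in the wild-type list. Tbx21, the T-bet gene that Ikaros restrains in T cells, had 6962 bp against 2140 bp. Ifng and Dntt, the genes of interferon gamma and terminal transferase, had 2134 and 3073 bp in the knockout list and 0 bp in the wild-type list. Gfi1, a zinc finger repressor gene, had 5356 bp against 3134 bp. Il2 and the B lineage gene Igll1 had no coverage in either list. Cd8a and Cd8b1 are also T cell markers, so this list is not separate from the check of the label.

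Family members are used by several cell types, so markers of these were measured in the same way. Over all protein-coding genes, 35.1% were longer in the knockout list. Of the 16415 with any coverage, 7672 were longer and 8728 shorter, and the counts below stand beside these. Among 7 B cell markers 4 were longer and 1 shorter in the knockout list, with 19174 bp in sum in the knockout list and 12855 bp in the wild-type list. Much of each sum came from Cd79a, with 6971 against 4731 bp, and Pax5, with 4569 against 4751 bp. Neither had a covered base within 2.5 kb of its 5′ end in either list. Ms4a1 and Cd22 were uncovered in both lists. Regulatory T cell markers had 37760 bp in the knockout list against 18615 bp in the wild-type list, longer for 7 of 8. Their defining gene Foxp3 had 645 bp in the knockout list and 208 bp in the wild-type list, and no region within 2.5 kb of the end used. Summed NK cell markers had 22319 bp in the knockout list against 4350 bp, longer for 4 of 5, while Ncr1 was uncovered in both. Most of the knockout sum came from Klrk1, with 11429 against 0 bp, and Eomes, with 9213 against 3981 bp. Klrb1c had 525 bp in the knockout list against 369 bp, and Gzma 1152 against 0 bp.

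Myeloid markers were longer in the knockout list for 3 of 9 and shorter for 6, with 30428 bp in sum in the knockout list and 35540 bp in the wild-type list. Endothelial and stromal markers had 31667 bp in the knockout list against 41872 bp in the wild-type list, longer for 1 of 7 and shorter for 6. Epithelial markers had 21889 bp in the knockout list against 18550 bp, longer for 4 of 7. Beside these counts, 7672 of the 16415 protein-coding genes with any coverage were longer and 8728 shorter. The part of these cells in the Ikaros family values was not tested.

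**Figure D5:**
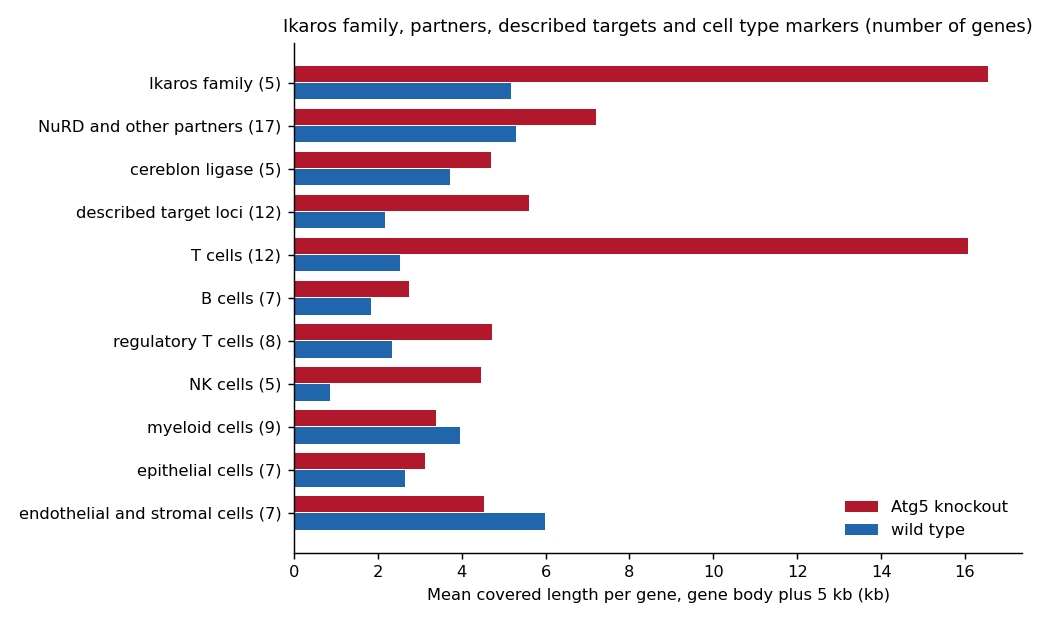
Mean covered length per gene in the gene body plus 5 kb, in kb, for the family, its partners, described target loci and cell type markers, with knockout bars in red above wild-type bars in blue and the number of genes in brackets. The family (16.54 kb against 5.18 kb) and the T cell markers (16.07 kb against 2.52 kb) show the widest gaps in kb. Long genes weigh more on this scale.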

How the data were processed

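The analysis rests on the H3K4me3 peak list of each genotype. H3K27me3 and input were not used here. Per the submitters' processing notes, MACS2 was the peak caller and GRCm38 (mm10) the build. Its version and settings, the aligner and the role of the input were not given in the sources used here. Peak names in the files show 1 library behind each list. The deposited fold is a ratio of summit signal to local background. The authors' −log10 p and −log10 q belong to that summit. The deposited score, 10 times the −log10 q, was not used. The authors' values were not scaled between libraries and serve only to describe or rank regions within 1 list.

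Covered length was computed on chromosomes 1 to 19, X and Y with Python 3.11.15, NumPy 2.4.6 and pandas 2.3.3, with plots by Matplotlib 3.10.9 and exact intervals by SciPy 1.17.1. The code was tested on simulated regions. Regions met if they shared at least 1 bp. Gene positions and promoters came from RefSeq tables (GRCm38.p6). The 5′ end was the most upstream start in the promoter table, which holds 17492 of 21887 genes, and otherwise the gene boundary with more coverage within 2.5 kb, summed over both lists. Each genotype has 1 library, so no test was made. Members and lists were chosen with earlier results of these data known. Beside the family and its neighbours, the text names members of the partner, cereblon ligase and described target lists that differ by at least 2000 bp, at most 6 a list, and the 5 genes nearest in coverage to each of Ikzf1, Ikzf2 and Ikzf3. Genes of the cell type marker lists fall outside this rule, as do Chd4, Hdac1, Il2 and Igll1. Those named outside it were chosen after their values were seen.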

Additional observations from a re-analysis of the deposited data

How the results depend on the processing

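All 5 members remained longer in the knockout list, and none was shorter, with regions of −log10 q of at least 5 or 10, with the 20000 regions of highest −log10 q in each list, over the gene body alone and with 10 kb flanks. The number longer by at least 2000 bp was 3 in each of these settings except with 20000 regions, where it was 4. With 20000 regions per list, 2 members were marked at the 5′ end in the wild-type list, and 5 of 14 knockout regions met a wild-type region, as did 4 of 5 wild-type regions in the other direction. Wild-type regions that met a knockout region numbered 10 of 11 at a −log10 q of at least 5, and 10 of 10 at 10, since fewer regions were kept. The Ikzf1 difference ranged from 18460 to 33185 bp, that of Ikzf3 from 9702 to 18296 bp, that of Ikzf2 from 3701 to 5001 bp, that of Ikzf4 from 1632 to 3667 bp and that of Ikzf5 from 223 to 321 bp. The widest Ikzf3 domain was 10739 bp in the knockout list and 9187 bp in the wild-type list when gaps of up to 3 kb were joined, and 6286 against 943 bp without joining. The gene table boundary as 5′ end was a setting chosen after seeing the data. A length was taken as moved past a ratio of 1.5. Region lengths depend on depth, which the lists do not state. No paired analysis was possible because each genotype has 1 library.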

Other observations

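The surroundings of all 5 members were measured over the 50 kb beyond the 5 kb flanks. Around Ikzf3, the side that holds Erbb2, Mien1 and Grb7 had 7381 bp covered in the knockout list and 7352 bp in the wild-type list. The side with Zpbp2, Ormdl3 and Lrrc3c had 5456 bp in the knockout list and 5656 bp in the wild-type list. The lists differed by 17114 bp over Ikzf3 and its flanks, and by far less in summed length over each 50 kb side. The nearest regions were also wider in the knockout list, 2622 against 1405 bp at Zpbp2 and 3288 against 2114 bp at Mien1. Parts of these 2 knockout regions lie in the flanks and count towards the 17114 bp. Around Ikzf1, the side downstream with Fignl1 and Ddc had 4431 bp in the knockout list and 4776 bp in the wild-type list. The upstream side holds no protein-coding gene, contains most of the lncRNA gene Gm11999, and had 3624 bp in the knockout list and 0 bp in the wild-type list. Around Ikzf4, the side with Erbb3 and Rps26 had 6674 bp in the knockout list and 7989 bp in the wild-type list, and the side with Rab5b, Pmel, Cdk2 and Dgka had 5261 bp in the knockout list and 5145 bp in the wild-type list. Around Ikzf2, the side of lower coordinate had 1520 bp in the knockout list and 1133 bp in the wild-type list, and the other side was uncovered in both lists. Around Ikzf5, the side with Fam24a, 2310057M21Rik and Pstk had 4150 bp in the knockout list and 3785 bp in the wild-type list, and the side with Acadsb was uncovered in both lists.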
